A study of Mus musculus with 32 samples.

Results

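Transcripts of 10 chromatin remodelling proteins were followed across 32 mouse embryos, each sequenced on its own at the late 2-cell stage, out of 34223 genes in the table and 15559 that passed the filter for testing. They were chosen by name: the remodeller ATPases Chd1, Chd2, Chd4, Chd7, Chd8, Smarca2, Smarca4, Smarca5 and Ino80, and Arid1a, a DNA-binding subunit that has no ATPase of its own. All 10 passed the filter of a normalised count of at least 10 in at least 8 embryos, and each had at least 1 read in every embryo. In 16 embryos (Val_LNA) an antisense oligonucleotide with locked nucleic acid (LNA), a modified nucleotide that binds RNA tightly, had been microinjected to inhibit tRFValCAC, a fragment of a valine tRNA. The other 16 embryos (Ctrl_LNA) had received a scramble oligonucleotide of the same chemistry. Embryos of both groups were wild type, made by in vitro fertilization, carried injected H3.3-GFP mRNA, which encodes a fluorescent histone H3.3, were selected as GFP-positive, and were taken 28 h after fertilization. There was no uninjected group, so the injection and the H3.3-GFP message are common to all embryos. The strain and the age of the parents are not given in the labels, which also do not say how many matings or injection days a group stands for. P-values therefore measure the spread between these embryos, which may be technical in part.

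Chromatin remodellers use the energy of ATP to slide, evict, exchange or reposition nucleosomes, the units in which DNA is wrapped around histones. They fall into families named after their ATPase: SWI/SNF (Smarca2, also called Brm, and Smarca4, also called Brg1), ISWI (Smarca5, also called Snf2h), CHD and INO80. In the mouse the egg brings stored mRNA for many of them, and maternal Smarca4 is known to be needed for activation of the embryo's own genome at the 2-cell stage. Chd1 binds the trimethylated lysine of histone H3 found at active promoters and is known to be needed for H3.3 assembly on paternal chromatin in Drosophila and for high transcriptional output in the early mouse embryo.

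The 9 ATPases share a signature box, in which an aspartate and a glutamate help to split ATP, and the coding sequence around it can be compared. The translated coding sequence of the longest annotated coding transcript was searched for aspartate, glutamate, alanine or glycine, and histidine or glutamine in a row. That search gave 1 match in each of the 9 ATPases and 0 in Arid1a. The 30 coding bases around each match, 5′ to 3′ on the coding strand, are given below from GENCODE M21 transcripts (GRCm38), with the 4 codons of the box in capitals.
Chd1: ataggtgttGATGAAGCGCATcgattaaag
Chd2: ctgggagtaGATGAAGCCCATcggttgaag
Chd4: ctcattgtgGATGAAGCCCATcggctgaag
Chd7: gtggtcatcGATGAAGCCCACaggctgaag
Chd8: gttatcattGATGAAGCCCATaggctgaag
Smarca2: atgatcgtgGACGAAGGCCACcggatgaag
Smarca4: atgattgtgGATGAAGGCCACcgcatgaaa
Smarca5: ttagttataGATGAAGCTCACaggataaaa
Ino80: atggtactgGATGAAGCTCAGgcactgaag
Chd2 has 23 of the 30 bases in common with Chd1, and the other ATPases have 18 to 21 in common with Chd1. Only likeness to Chd1 was counted, over a short stretch that holds the box required by the search. It does not measure how far the genes have diverged.

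Depth lay between 2592925 and 6259870 recovered reads per embryo. Genes detected numbered 16687 to 20200 in 31 embryos, but 7276 in Ctrl_LNA 48, which had 5122089 reads and stood apart from the rest. Of transcripts that mark the 2-cell stage, 17 of 20 listed were in the table, and their summed normalised count was 9940 to 41568 in Val_LNA and 3639 to 42161 in Ctrl_LNA. The 15 listed oocyte transcripts, stored in the egg, summed to between 10688 and 59609 (median 23800) in Val_LNA and between 6427 and 34834 (median 15092) in Ctrl_LNA. Sums of 11 cumulus and granulosa cell markers had a median of 37.7 in Val_LNA (at most 299.6) and 15.6 in Ctrl_LNA (at most 668.8). Only Tnfaip6 had a median above 0, at 23.2 in Val_LNA and 2.0 in Ctrl_LNA (log2 fold change 2.03, limma adjusted p = 0.107). Fshr, Foxl2 and Lhcgr were at 0 in every Ctrl_LNA embryo, but not in every Val_LNA embryo. Sums of sperm transcripts reached at most 60.6 in Val_LNA and 50.4 in Ctrl_LNA. The library numbers in the labels form runs, Val_LNA 1 to 8 with Ctrl_LNA 31 to 38 (lower runs) and Val_LNA 13 to 20 with Ctrl_LNA 43 to 50 (upper runs). The labels do not call these runs batches.

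Chd1 was lower in Val_LNA embryos, at 0.372 times the Ctrl_LNA level, while the other 9 transcripts did not pass the test with all embryos. Arid1a, at 1.39 times the Ctrl_LNA level, came nearest to passing. Chd1 was the only member of the 10 called by limma on log2(normalised count + 1) at a Benjamini-Hochberg adjusted p under 0.05. Across all tested genes, 2.19% were called in either direction, 0.881% higher and 1.31% lower in Val_LNA, and 1 call among 10 members is too few to set the members apart from these shares. The median log2 fold change of the 10 members, Val_LNA minus Ctrl_LNA, was -0.04, beside 0.26 for all tested genes. Without Ctrl_LNA 48, Chd1 and Arid1a were called, against 4.2% of all tested genes, and the medians were -0.18 for the members and 0.07 for all tested genes. DESeq2 called the same pair, against 3.3% of all tested genes (4.3% without Ctrl_LNA 48), and edgeR called 0 members, against 1.23%. At an unadjusted p under 0.05 edgeR had 3 of the 10 members, against 1694 of 15559 tested genes. After each embryo was centred on its median gene, limma called 0 members with all embryos, against 2.32%, and Chd1 without Ctrl_LNA 48, against 3.98%. At an unadjusted p under 0.05 the centred fit with all embryos had 2 of the 10 members, against 2148 of 15559 tested genes.

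**Figure D1:**
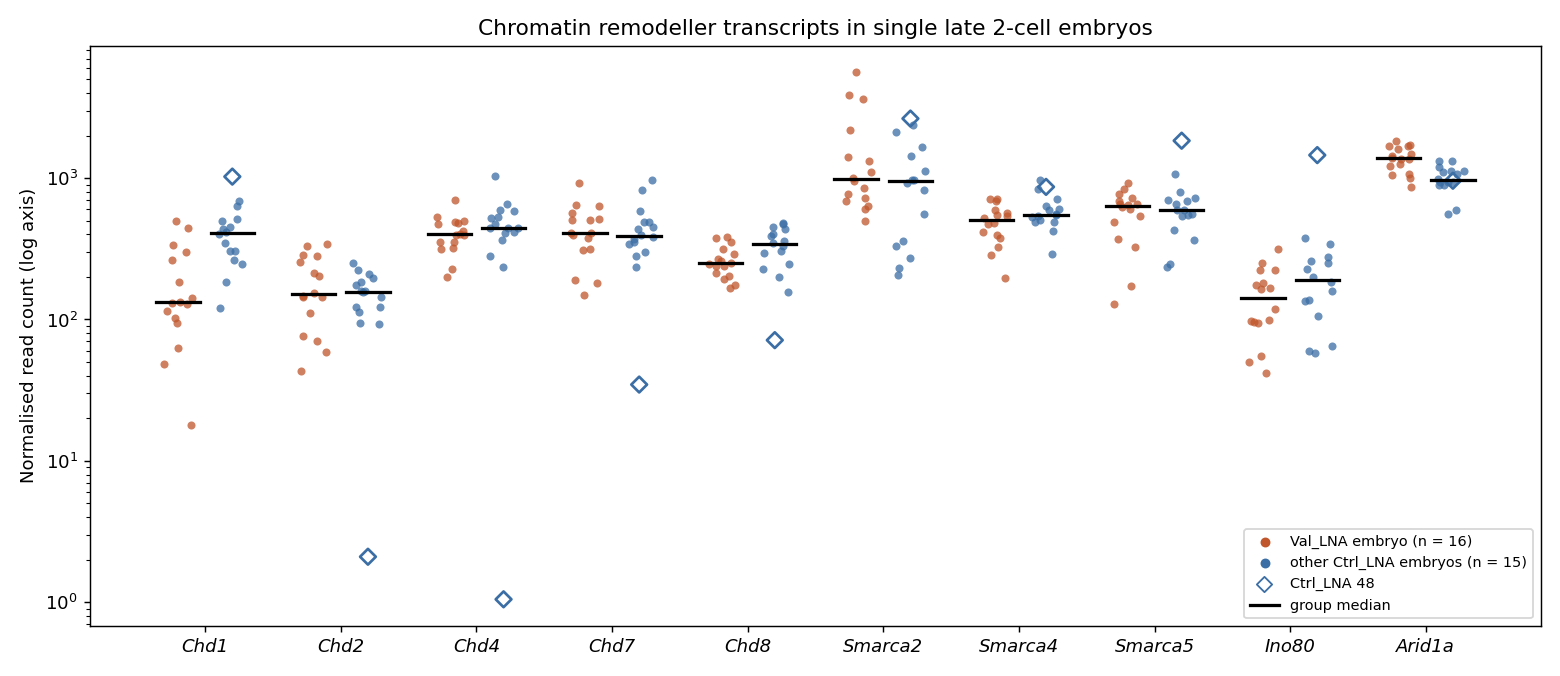
Normalised read count (log axis) of each of the 10 transcripts in every embryo, with Val_LNA on the left and Ctrl_LNA on the right of each pair, a bar at the group median and Ctrl_LNA 48 as an open diamond. The median of Chd1 is 132.4 in Val_LNA and 409.5 in Ctrl_LNA, that of Arid1a is 1384 in Val_LNA and 969.1 in Ctrl_LNA, and Ctrl_LNA 48 is far below the rest for Chd2, Chd4, Chd7 and Chd8 and above the rest of its group for Ino80 and Smarca5.

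Chd1 encodes a remodeller that spaces nucleosomes in transcribed genes (chromosome 17, 15704967 to 15772610, plus strand, GRCm38, as in all coordinates here). Its normalised counts in Val_LNA embryos ran from 17.9 through a median of 132.4 to 500.5, against 121.5, 409.5 and 1024 in Ctrl_LNA embryos. These values rest on 18 to 602 reads in Val_LNA and 135 to 975 in Ctrl_LNA. The groups overlapped, but 14 of 16 Val_LNA embryos lay below the Ctrl_LNA median, and 6 lay below every Ctrl_LNA embryo. Chd1 averaged 187.6 ± 141.2 over the 16 Val_LNA embryos and 427.8 ± 220.8 over the 16 Ctrl_LNA embryos (SD). The log2 fold change was -1.43 ± 0.37 (SE, limma adjusted p = 0.0248), which is 0.372 times the Ctrl_LNA level with a 95% interval of 0.222 to 0.621.

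The highest Chd1 value of all was that of Ctrl_LNA 48. Without it the Ctrl_LNA range ended at 692.5, and the log2 fold change was -1.33 (limma adjusted p = 0.0189). Leaving out each embryo in turn gave log2 fold changes of -1.55 to -1.24 and limma adjusted p of 0.0114 to 0.047. The call held in 32 of 32 of these fits, which share most of their embryos. Of 18 other settings, 10 kept the call and 8 lost it. DESeq2 gave -1.19 (adjusted p = 0.0165), while edgeR's quasi-likelihood test gave -1.23 and did not call it (adjusted p = 0.0936). The summed oocyte transcripts, which were higher in Val_LNA at the median, ran against Chd1 from embryo to embryo. With the log2 of that sum as a covariate, a fit added after the data were seen, the log2 fold change of Chd1 was -0.83 and was not called with all embryos (limma adjusted p = 0.137) or without Ctrl_LNA 48 (limma adjusted p = 0.0603). With median centring limma gave -1.88 (adjusted p = 0.082) with all embryos and -1.40 (adjusted p = 0.0256) without Ctrl_LNA 48. Neither pair of runs called Chd1 alone: the log2 fold change was -1.16 in the lower runs (limma adjusted p = 0.452) and -1.70 in the upper runs (limma adjusted p = 0.203), or -1.54 without Ctrl_LNA 48 (limma adjusted p = 0.0574). Median Chd1 counts were 128.1 in Val_LNA and 328.0 in Ctrl_LNA in the lower runs, and 132.4 in Val_LNA and 473.5 in Ctrl_LNA in the upper runs.

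Arid1a encodes a subunit of the BAF form of SWI/SNF that binds DNA and helps to direct the complex (chromosome 4, 133679008 to 133756769, minus strand). Its counts in Val_LNA embryos ran from 871.3 through a median of 1384 to 1831, against 552.7, 969.1 and 1319 in Ctrl_LNA embryos. Of the 16 Val_LNA embryos, 15 lay above the Ctrl_LNA median, 10 lay above every Ctrl_LNA embryo, and all 16 Ctrl_LNA embryos lay below the Val_LNA median. Arid1a averaged 1377 ± 282.8 over the 16 Val_LNA embryos and 996.2 ± 214.0 over the 16 Ctrl_LNA embryos (SD). The log2 fold change of 0.47 ± 0.14 (SE) did not pass the threshold with all embryos (limma adjusted p = 0.0727), and its unadjusted 95% interval was 1.14 to 1.69 times the Ctrl_LNA level.

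Whether Arid1a was called depended on the test and on the scaling. Without Ctrl_LNA 48 the log2 fold change was the same, 0.47, with a limma adjusted p of 0.0379. DESeq2 called it with all embryos (0.47, adjusted p = 0.024) and without Ctrl_LNA 48 (0.40, adjusted p = 0.0496), and edgeR did not (0.37, adjusted p = 0.288). Centring each embryo on its median gene left 0.02 (limma adjusted p = 0.987) with all embryos and 0.40 (limma adjusted p = 0.161) without Ctrl_LNA 48. Of the 32 fits that left out 1 embryo, 2 called Arid1a, those without Ctrl_LNA 48 and without Val_LNA 2 (limma adjusted p = 0.0379 and 0.0446). The difference was 0.56 in the lower runs (limma adjusted p = 0.298) and 0.38 in the upper runs (limma adjusted p = 0.505).

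Smarca2 and Smarca4 are the alternative ATPases of SWI/SNF complexes, and a complex holds either of them. Smarca2 (chromosome 19, 26605050 to 26778322, plus strand) ran in Val_LNA from 500.5 through a median of 979.8 to 5600 normalised counts, against 207.2, 947.2 and 2635 in Ctrl_LNA. The medians were close and the groups overlapped widely, with 3 Val_LNA embryos above and 5 Ctrl_LNA embryos below all embryos of the other group. The log2 fold change was 0.62 ± 0.38 (SE, limma adjusted p = 0.442), and the 95% interval of 0.897 to 2.63 times the Ctrl_LNA level includes no change. Smarca4 (chromosome 9, 21616169 to 21704230, plus strand) ran from 196.5 through a median of 503.8 to 711.7 in Val_LNA, against 289.3, 552.0 and 974.8 in Ctrl_LNA. For Smarca4, 11 of 16 Val_LNA embryos lay below the Ctrl_LNA median, and the log2 fold change of -0.31 did not pass (limma adjusted p = 0.448).

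Chd4 is the ATPase of the NuRD complex, which joins remodelling to histone deacetylation (chromosome 6, 125095981 to 125130591, plus strand). It ran from 198.6 through a median of 401.5 to 705.2 in Val_LNA, against 1.05, 444.7 and 1043 in Ctrl_LNA. The lowest value was 1 read in Ctrl_LNA 48, and the next lowest Ctrl_LNA embryo had 233.7. Chd4 had a log2 fold change of 0.24 with that embryo (limma adjusted p = 0.838) and -0.25 without it (limma adjusted p = 0.516). With it, the value was negative in edgeR (-0.25), in DESeq2 (-0.18) and with median centring (-0.21). The sign thus depended on the test and the scaling while that embryo was included. Without it these fits were negative too.

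Chd2 is the closest relative of Chd1 and has been linked to the deposition of H3.3 in cultured cells (chromosome 7, 73426638 to 73541830, minus strand). It ran from 43.2 through a median of 150.4 to 343.6 in Val_LNA, against 2.1, 156.6 and 252.2 in Ctrl_LNA, where the lowest value was 2 reads in Ctrl_LNA 48. The log2 fold change was 0.33 with that embryo (limma adjusted p = 0.732) and -0.03 without it (limma adjusted p = 0.975). Of the exonic bases of Chd2, 19.29% are shared with other annotated genes, 2628 of them with the non-coding 1810026B05Rik on the same strand, and reads from the shared bases cannot be told apart. That neighbour had a median of 14.1 in Val_LNA and 22.5 in Ctrl_LNA.

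Chd7 and Chd8 form a further subfamily of CHD remodellers, known for enhancer binding and for syndromes of human development. Chd7 (chromosome 4, 8690406 to 8867659, plus strand) ran from 150.0 through a median of 411.0 to 918.7 in Val_LNA, against 34.7, 386.8 and 970.4 in Ctrl_LNA. Its log2 fold change was 0.11 (limma adjusted p = 0.885) and, without Ctrl_LNA 48, which holds the lowest value, -0.11 (limma adjusted p = 0.848). Chd8 (chromosome 14, 52198151 to 52257780, minus strand) ran from 167.9 through a median of 250.0 to 380.1 in Val_LNA, against 71.4, 341.5 and 482.3 in Ctrl_LNA. For Chd8, 13 of 16 Val_LNA embryos lay below the Ctrl_LNA median, and 6 Ctrl_LNA embryos lay above every Val_LNA embryo. The log2 fold change of Chd8 was -0.22 (limma adjusted p = 0.667), and -0.36 without Ctrl_LNA 48 (limma adjusted p = 0.291), and 5.77% of its exonic bases overlap an antisense gene that this protocol cannot separate.

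Smarca5 is the ATPase of the ISWI complexes, which space nucleosomes evenly (chromosome 8, 80698507 to 80739497, minus strand). It ran from 129.6 through a median of 633.5 to 918.1 in Val_LNA, against 234.7, 594.8 and 1838 in Ctrl_LNA, with Ctrl_LNA 48 the highest. The groups overlapped over most of their range, and the log2 fold change was -0.20 (limma adjusted p = 0.745), or -0.09 without Ctrl_LNA 48 (limma adjusted p = 0.896). Ino80 is the ATPase of the INO80 complex, which acts at promoters and replication forks (chromosome 2, 119373042 to 119477687, minus strand). It ran from 41.7 through a median of 141.4 to 314.1 in Val_LNA, against 57.9, 191.3 and 1454 in Ctrl_LNA, and without Ctrl_LNA 48 the Ctrl_LNA range ended at 378.8. For Ino80, 12 of 16 Val_LNA embryos lay below the Ctrl_LNA median, and the log2 fold change of -0.56 did not pass (limma adjusted p = 0.48). It was -0.36 without Ctrl_LNA 48.

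**Figure D2:**
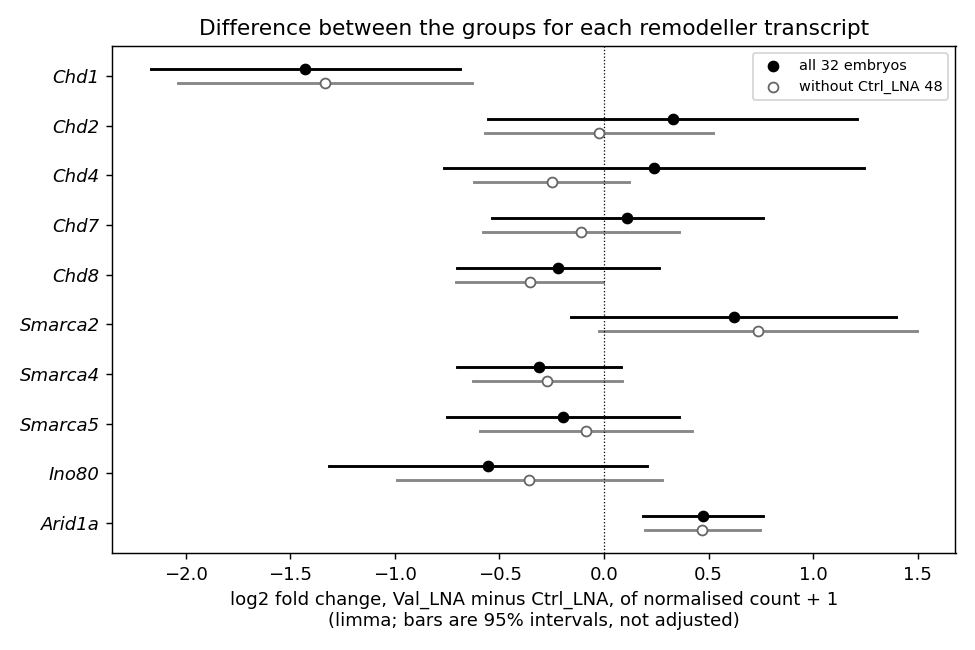
Log2 fold change of each transcript, Val_LNA minus Ctrl_LNA, of normalised count + 1, with its unadjusted 95% interval from limma, with all 32 embryos (filled) and without Ctrl_LNA 48 (open). The intervals of Chd1 (-2.17 to -0.69) and Arid1a (0.19 to 0.76) leave out 0 with all embryos, and the points of Chd2, Chd4 and Chd7 change sign when Ctrl_LNA 48 is left out.

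Because the scaling of an embryo nearly cancels in the difference of 2 transcripts from the same embryo, 4 pairs of related members were also compared within embryos, with p-values adjusted over the 4. The pairs reuse the values of the single-gene tests above, so they are not independent of those tests. They were also chosen with earlier results of these data known. Chd1 and Chd2 parted between the groups. Log2 Chd1 minus log2 Chd2 averaged -0.11 ± 1.83 over the Val_LNA embryos and 1.65 ± 2.02 over the Ctrl_LNA embryos (SD), a difference of -1.76 (two-sided permutation test, adjusted p = 0.0181). The Chd1 count was the higher of the pair in 6 of 16 Val_LNA embryos, against 15 of 16 Ctrl_LNA embryos. These counts are not divided by exonic length, which is 8.72 kilobases for Chd1 and 14.3 for Chd2. Per kilobase, the Val_LNA median of Chd1 (15.2) was above that of Chd2 (10.5). Without Ctrl_LNA 48, whose value of 8.37 rests on 2 reads of Chd2, the difference was -1.31 (permutation adjusted p = 0.0362). It was -0.55 in the lower runs (exact permutation adjusted p = 0.559, n = 8 each), and in the upper runs -2.96, or -2.10 without Ctrl_LNA 48 (exact permutation adjusted p = 0.00684 and 0.0137).

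Arid1a also shifted against Smarca4, an ATPase it assembles with. Alone, neither was called by limma with all embryos (adjusted p = 0.0727 for Arid1a and 0.448 for Smarca4). Log2 Arid1a minus log2 Smarca4 averaged 1.54 ± 0.63 over the Val_LNA embryos and 0.75 ± 0.47 over the Ctrl_LNA embryos (SD), a difference of 0.78 (two-sided permutation test, adjusted p = 0.00112). In this measure 15 of 16 Val_LNA embryos lay above the Ctrl_LNA median. The difference was 0.74 without Ctrl_LNA 48 (permutation adjusted p = 0.00208), 0.79 in the lower runs (exact permutation adjusted p = 0.105, n = 8 each) and 0.77 in the upper runs (exact permutation adjusted p = 0.0112, n = 8 each). Smarca2 minus Smarca4 averaged 1.38 ± 1.27 in Val_LNA and 0.45 ± 1.40 in Ctrl_LNA, a difference of 0.93 that did not pass (permutation adjusted p = 0.0778, n = 16 each). Chd7 minus Chd8 averaged 0.64 ± 0.77 in Val_LNA and 0.31 ± 0.89 in Ctrl_LNA, a difference of 0.33 (permutation adjusted p = 0.264, n = 16 each).

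**Figure D3:**
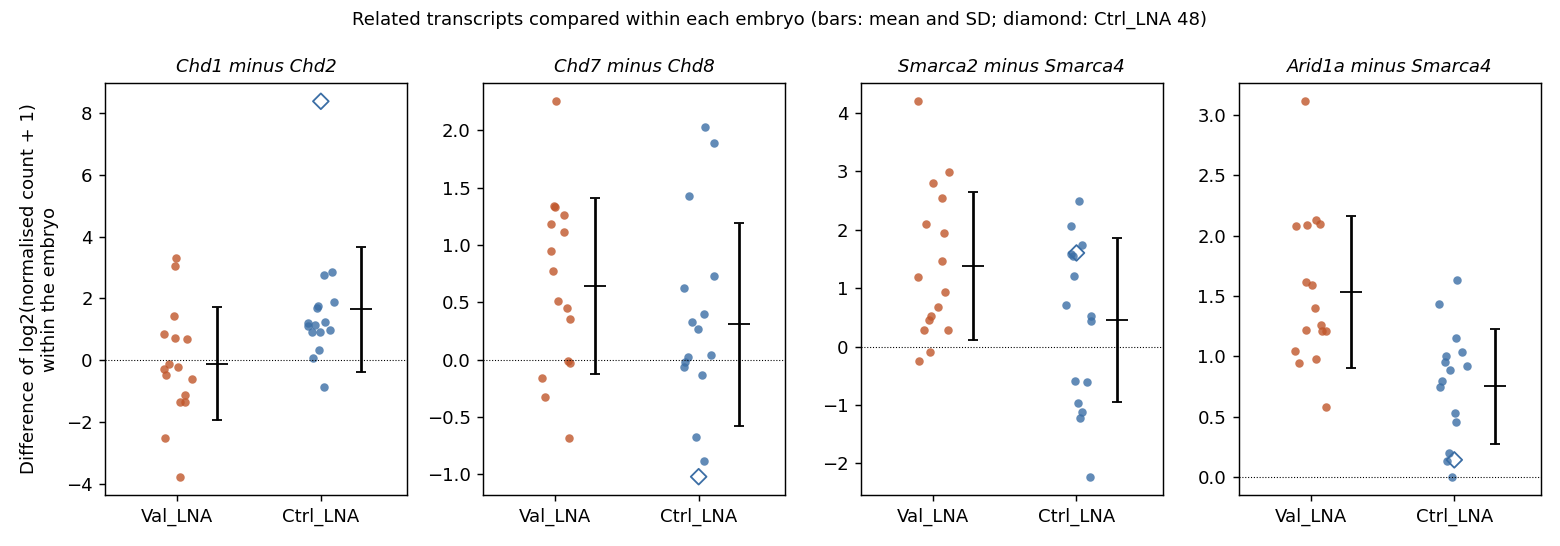
Difference of log2(normalised count + 1) between related transcripts within each embryo, Val_LNA left of Ctrl_LNA, with the mean and SD of each group and Ctrl_LNA 48 as an open diamond. The mean of Chd1 minus Chd2 is -0.11 in Val_LNA and 1.65 in Ctrl_LNA, and that of Arid1a minus Smarca4 is 1.54 in Val_LNA and 0.75 in Ctrl_LNA.

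Per kilobase of annotated exon, which allows levels to be compared between genes, Arid1a stood at the top in Val_LNA with a median of 120.6 normalised counts per kilobase, above 85.6% of tested genes with a length. Smarca5 (81.5), Smarca4 (77.8), Smarca2 (68.7) and Chd4 (50.1) followed in Val_LNA, then Chd7 (29.8), Ino80 (20.8), Chd1 (15.2), Chd8 (15.1) and Chd2 (10.5). In Ctrl_LNA without embryo 48, Arid1a (85.4), Smarca4 (84.7), Smarca5 (76.0) and Smarca2 (64.8) were again ahead of Chd4 (55.5), and Chd1 (46.4) came next, before Chd7 (28.5), Ino80 (27.0), Chd8 (21.2) and Chd2 (11.0). Taking each gene with the next one down, the mean within-embryo difference exceeded its SD over embryos for 1 neighbouring pair, Chd8 over Chd2 in Ctrl_LNA, so the other steps of either order do not exceed the spread. The Chd1 level stood above 43.5% of tested genes in Val_LNA, against 69.2% in those Ctrl_LNA embryos.

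The members differed in how much they varied between embryos of the same group. Arid1a was the steadiest, with an SD of log2 values of 0.31 in Val_LNA and 0.36 in Ctrl_LNA without embryo 48, and 0.6% and 2.9% of tested genes had a smaller SD in those groups. Chd4, Chd8 and Smarca4 had SDs of 0.37 to 0.51 in Val_LNA and 0.41 to 0.50 in the same Ctrl_LNA embryos. Smarca2 was the most variable in Ctrl_LNA without embryo 48 (SD 1.17) and Chd1 in Val_LNA (SD 1.22), both near the median of all tested genes, which was 1.25 in Val_LNA and 1.15 in those Ctrl_LNA embryos. These comparisons with all tested genes are not matched for count level.

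This variation was shared between members. After each transcript was centred on its group mean, 14 of 45 member pairs had a Spearman correlation with a permutation p under 0.05 after adjustment over the 45 pairs, in the 31 embryos without Ctrl_LNA 48. These correlations were chosen after the data were seen. The share of pairs passing among all tested genes was not computed, so the count does not set the members apart from other genes. Of the 14, 8 were positive and 6 negative, and all 14 had the same sign within Val_LNA, within Ctrl_LNA and after centring on each run of library numbers. Chd1, Smarca5, Ino80 and Chd7 went up and down together, with rho of 0.48 to 0.67 over their 6 pairs. For Chd1 and Ino80 rho was 0.67 and Pearson's r 0.69 (permutation adjusted p = 0.0022 and 0.00022), and r was 0.66 without the 2 embryos farthest from the median on the axis of Ino80.

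Smarca2 ran against those 4 transcripts. Its rho was -0.78 with Smarca5 (r = -0.76, permutation adjusted p = 0.00045 and 0.00022), and r was -0.81 without the 2 farthest embryos. With Chd1 rho was -0.72 (r = -0.61, permutation adjusted p = 0.00045 and 0.0012), and r was -0.54 without the 2 farthest. Of the 14 pairs, 1 joined Smarca2 to a transcript that ran with it, Chd4 (rho 0.48). Arid1a, Chd8 and Chd2 were in none of the 14 pairs. By Pearson's r, 3 of the 14 pairs, all with Chd7, missed the threshold: Smarca5 (r = 0.29, permutation adjusted p = 0.28), Chd1 (r = 0.43, permutation adjusted p = 0.09) and Smarca2 (r = -0.43, permutation adjusted p = 0.063).

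**Figure D4:**
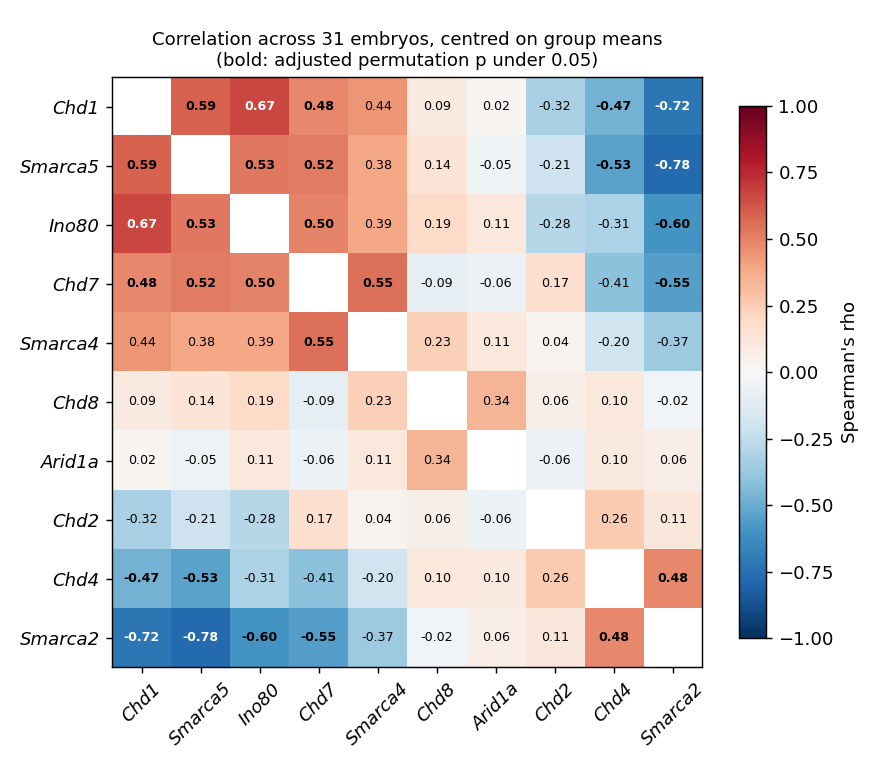
Spearman correlation of log2(normalised count + 1) between members over 31 embryos without Ctrl_LNA 48, each transcript centred on its group mean, with adjusted permutation p under 0.05 in bold. Chd1, Smarca5, Ino80 and Chd7 form a positive block with rho of 0.48 to 0.67, and Smarca2 is negative with all 4, with rho of -0.78 to -0.55.

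The members were also set against the summed oocyte transcripts, in the same centred values. How many of all tested genes follow that sum was not computed. Smarca2 followed that sum closely, with rho 0.89 and r 0.89 over 31 embryos (permutation adjusted p = 0.00013 and 0.0002 over 40 relations), and r was 0.87 without the 2 farthest embryos. Chd1 ran against it, with rho -0.83 and r -0.73 (permutation adjusted p = 0.00013 and 0.00024), and r was -0.71 without the 2 farthest. Smarca5 did likewise, with rho -0.79 and r -0.77 (permutation adjusted p = 0.00013 and 0.0002), and r was -0.71 without the 2 farthest. Ino80 (rho -0.68), Chd7 (-0.54) and Smarca4 (-0.46) were also negative and Chd4 (0.45) positive past the same threshold. Within Val_LNA rho was 0.94 for Smarca2 and -0.87 for Chd1, and within Ctrl_LNA without embryo 48 it was 0.89 for Smarca2 and -0.70 for Chd1. Centring on each run of library numbers left 0.86 for Smarca2 and -0.82 for Chd1. Arid1a showed no such relation (rho 0.13, permutation adjusted p = 0.57), and no member correlated with the number of reads past the threshold (rho of -0.27 to 0.29). The number of genes detected did correlate with 6 members: positively with Smarca2 (rho 0.64, r 0.59, permutation adjusted p = 0.0017 and 0.0043) and Chd4 (rho 0.46), and negatively with Smarca5 (rho -0.52), Chd7 (rho -0.52), Chd1 (rho -0.50) and Ino80 (rho -0.50). The summed two-cell transcripts passed with Smarca2 (rho 0.68, r 0.73, permutation adjusted p = 0.0004 and 0.00024) and with Chd1 (rho -0.50, r -0.43, permutation adjusted p = 0.014 and 0.04). Without the 2 farthest embryos, r with the genes detected was 0.57 for Smarca2 and -0.48 for Chd1, and r with the two-cell sum was 0.68 for Smarca2 and -0.41 for Chd1. The part of the number of genes detected in the relations between members was not tested.

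**Figure D5:**
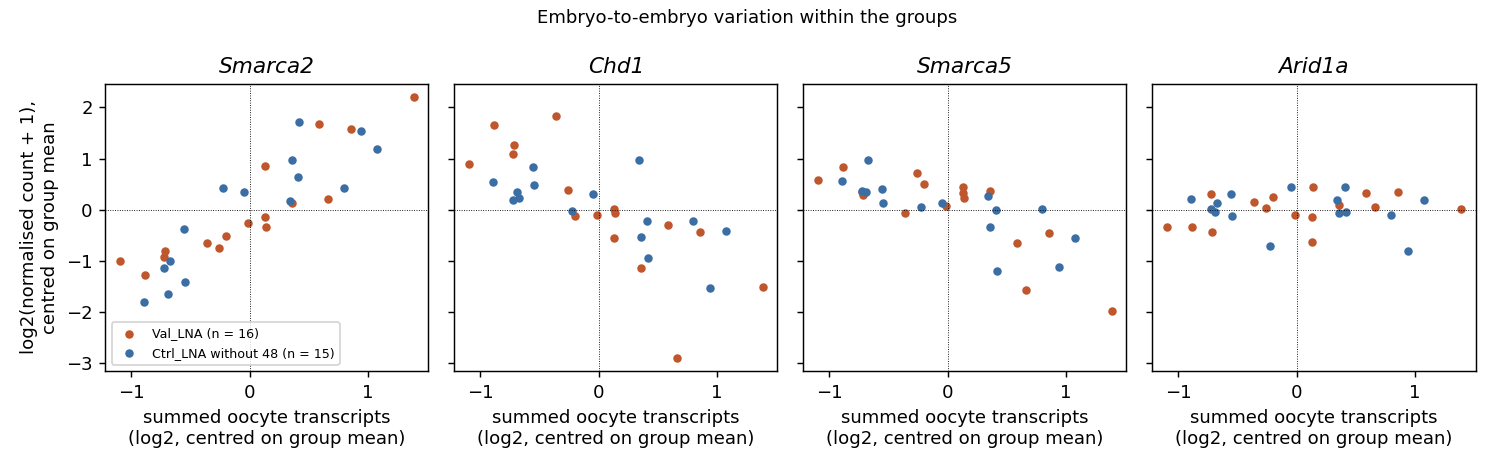
Log2(normalised count + 1) of 4 transcripts against the log2 of the summed oocyte transcripts, both centred on the group mean, in 16 Val_LNA and 15 Ctrl_LNA embryos. Smarca2 rises with the sum (rho 0.89), Chd1 and Smarca5 fall with it (rho -0.83 and -0.79), and Arid1a stays flat (rho 0.13).

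The oocyte sum also differed in level between the groups, with the medians given above, and 14 of its 15 transcripts had a positive log2 fold change (median 0.90, or 0.44 without Ctrl_LNA 48; 12 of 15 with median centring), although 0 of 15 were called by limma, edgeR or DESeq2 (3 at an unadjusted p under 0.05 in limma). Oosp1, a secreted oocyte protein, had the smallest p of them, with a log2 fold change of 1.11 (limma adjusted p = 0.292). Among all 15559 tested genes, 64.3% had a positive log2 fold change, or 54.2% without Ctrl_LNA 48 and 39% with median centring. In limma 2292 of all tested genes had an unadjusted p under 0.05. In the fits with the oocyte sum as a covariate Arid1a had a log2 fold change of 0.45 (limma adjusted p = 0.0924 with 32 embryos and 0.0438 without Ctrl_LNA 48). Smarca2 came to -0.01 with 32 embryos and 0.05 without Ctrl_LNA 48. The covariate itself differs between the groups, and these fits do not separate what it carries from the treatment. A lower count in a whole embryo also cannot tell less RNA per cell from a different share of the embryo's total RNA.

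The 3 tested genes most like Chd1, by Spearman correlation of group-centred values over the 31 embryos, were Adsl (0.91), an enzyme of purine synthesis, Osbpl6 (0.91), a lipid-binding protein, and Arih2 (0.90), a ubiquitin ligase. The median correlation of all 15558 other tested genes with Chd1 was -0.10. Arih2 was also called lower in Val_LNA, with a median of 370.2 in Val_LNA and 1060 in Ctrl_LNA (log2 fold change -1.50, limma adjusted p = 0.00858). Adsl (-1.18, limma adjusted p = 0.385) and Osbpl6 (-2.00, limma adjusted p = 0.142) were not called.

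Other genes of the remodelling complexes were counted in lists, to be read beside the 2.19% of all tested genes that limma called (4.2% without Ctrl_LNA 48). Counts at an unadjusted p under 0.05 in limma are to be read beside 2292 of 15559 tested genes. Of 22 further remodeller ATPases, 0 were called by limma, edgeR or DESeq2 (4 at an unadjusted p under 0.05 in limma, median log2 fold change 0.11), and Shprh, linked to DNA damage tolerance, had the smallest p (-1.60, limma adjusted p = 0.19). Of 24 SWI/SNF subunits, 0 were called by limma or DESeq2 (4 at an unadjusted p under 0.05 in limma, median 0.44), and 1 was lower by edgeR, Pbrm1 (-1.68, edgeR adjusted p = 0.0497). DESeq2 gave Pbrm1 -0.77 (adjusted p = 0.131), and its Ctrl_LNA counts reached 3200 beside a median of 229.1. Arid2, which like Pbrm1 belongs to the PBAF form, had the smallest limma p of the 24 (0.73, limma adjusted p = 0.0834). Arid2 was called without Ctrl_LNA 48 (limma adjusted p = 0.0408) and, of the other fits that left out 1 embryo, without Ctrl_LNA 32. Smarcd1 was called lower without Ctrl_LNA 48 (-1.75, limma adjusted p = 0.0442) and with median centring (-1.88, limma adjusted p = 0.0388). Its counts were low, with medians of 13.4 in Val_LNA and 30.4 in Ctrl_LNA. Of 12 ISWI partners, 0 were called by limma, edgeR or DESeq2 (2 at an unadjusted p under 0.05 in limma, median 0.17). The histone-binding Rbbp4, also a NuRD subunit, had the smallest p there (0.87, limma adjusted p = 0.0656), and 6 of 32 fits that left out 1 embryo called it (without Val_LNA 14 and without Ctrl_LNA 36, 44, 46, 48 or 49). Pbrm1 and Smarcd1 were named after their values were seen. These medians are to be read beside the 0.26 of all tested genes. Without Ctrl_LNA 48 the median was -0.29 for the further ATPases, 0.22 for the SWI/SNF subunits and 0.23 for the ISWI partners, beside 0.07 for all tested genes. With all embryos, median centring turned the medians of the further ATPases (-0.34), SWI/SNF subunits (-0.01) and ISWI partners (-0.28) negative. The median of all tested genes was then -0.19, against 0.26 uncentred. Without Ctrl_LNA 48, centring moved it from 0.07 to 0. In the lists, values with median centring include that embryo.

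Of 12 NuRD subunits, 1 was higher in Val_LNA and 0 lower (median 0.14, or -0.01 without Ctrl_LNA 48 and -0.31 with median centring). Without Ctrl_LNA 48, 2 were higher, Gatad2a and Rbbp4. The call with all embryos was Gatad2a, a scaffold of NuRD, with 885.1 to 2400 normalised counts (median 1409) in Val_LNA and 611.2 to 1497 (median 982.7) in Ctrl_LNA. Its log2 fold change was 0.65 (limma adjusted p = 0.0357). DESeq2 also called it (0.66, adjusted p = 0.0139), as did limma without Ctrl_LNA 48 (0.62, adjusted p = 0.0271). EdgeR did not (0.57, adjusted p = 0.0697), and median centring with Ctrl_LNA 48 included left 0.21 (limma adjusted p = 0.838). The call of Gatad2a was lost in 13 of 32 fits that left out 1 embryo, those without Val_LNA 1, 3, 4, 6, 8, 13 or 14 and without Ctrl_LNA 38, 43, 44, 46, 47 or 49, with limma adjusted p of up to 0.0638. Of 27 subunits of the INO80, SRCAP and TIP60 complexes, 1 was lower in Val_LNA and 0 higher (median -0.10, or -0.26 without Ctrl_LNA 48 and -0.55 with median centring). It was Ino80c, a subunit of the INO80 complex, with 0 to 254.3 (median 48.3) in Val_LNA and 11.7 to 669.7 (median 300.6) in Ctrl_LNA. The log2 fold change of Ino80c was -2.93 (limma adjusted p = 0.00508), and edgeR (-2.52, adjusted p = 0.00889) and DESeq2 (-2.44, adjusted p = 6.5e-05) called it too, but not limma in the lower runs (-1.92, adjusted p = 0.254) or the upper runs (-3.93, adjusted p = 0.134) alone. A further subunit, Trrap, was not called by limma with all embryos (-1.60, adjusted p = 0.151). It was called lower without Ctrl_LNA 48 (-2.11, limma adjusted p = 1.9e-05) and with median centring (-2.04, limma adjusted p = 0.000229). EdgeR (-1.75, adjusted p = 0.0258) and DESeq2 (-1.73, adjusted p = 0.000688) also called it. Trrap was also named after its values were seen. Of the 17 two-cell transcripts 0 were called by limma (3 at an unadjusted p under 0.05), 0 by edgeR and 3 by DESeq2. Zfp352 had the smallest p of the 17 (0.62, limma adjusted p = 0.143). All 17 had positive log2 fold changes (median 0.87), and 13 of 17 did with median centring (median of the 17 0.42). Without Ctrl_LNA 48 all but Usp17le (-0.087) stayed positive, from 0.103 for Sp110 to 1.201 for Usp17lc. Of all tested genes 64.3% were positive, or 54.2% without Ctrl_LNA 48 and 39% with median centring.

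A direct test of whether the effect differed between the runs of library numbers called no gene: 0 of 15559 at an adjusted p under 0.05 in limma and 0 in edgeR, with 808 and 677 genes at an unadjusted p under 0.05. Among the members the smallest p of that test was that of Chd2, whose effect was 1.87 higher on the log2 scale in the upper runs (limma adjusted p = 0.817), or 1.16 higher without Ctrl_LNA 48 (limma adjusted p = 0.819).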

How the data were processed

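Embryos were lysed singly, and their polyadenylated RNA was copied by template-switching reverse transcription, PCR and tagmentation, per the labels' protocols. The protocols mention no molecular identifier and no strand marking, so reads include PCR copies and counting error is understated. The deposited signal is gene counts divided by DESeq size factors by the authors, per the file headers, and the size factors, a ratio for each embryo, were deposited too. The submitters' processing notes name Bowtie2, STAR, SAMtools, DESeq2 and mm10, with no roles or versions. Multiplying by the size factors returned whole reads for 1095136 of 1095136 values (largest distance from a whole number 0.0086), and these entered the count tests.

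Gene identifiers matched GENCODE M21 for 34179 of 34223 genes (99.87%), version numbers ignored. The lowest chi-square per gene over 240 pairs within a group was 23.1, so no library looked deposited more than once. The main test was limma 3.58.1 (trend, robust) in R 4.3.3 on log2(normalised count + 1), a fold-change scale that understates low genes, over 15559 genes with a count of at least 10 in at least 8 embryos. Calls used Benjamini-Hochberg adjusted p under 0.05 over all of these. Permutation tests were two-sided with 100000 resamples, exact where a group had 8 embryos or fewer. For correlations, embryos were permuted within groups, and 1e-05 is the smallest p those permutations can give. Alternatives were edgeR 4.0.16, DESeq2 1.42.0, voom, and other pseudocounts, filters, scalings, weights, covariates, runs and single embryos left out. Scripts were tested on simulated data. The members, gene lists and tests were chosen with earlier results of these data known. Named genes were the 10 members, of each further list up to 4 called genes or the gene with the smallest p, and the 3 genes most correlated with the called member.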

Additional observations from a re-analysis of the deposited data

How the results depend on the processing

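No paired analysis was possible because the groups share no library numbers. The number of genes called was 341 (137 higher, 204 lower in Val_LNA). It was 192 with edgeR (29 higher), 513 with DESeq2 (325 lower), 917 with array weights (353 higher, 564 lower), 180 in the lower runs (83 lower) and 35 in the upper runs (2 higher, 33 lower). Median centring gave 61 higher. Without Ctrl_LNA 48 it was 654 (245 higher, 409 lower), and with that embryo also left out edgeR gave 90 higher, DESeq2 669 (268 higher, 401 lower), median centring 619 (433 lower), the oocyte covariate 737 (341 higher, 396 lower) and the upper runs 131 (7 higher, 124 lower). Leaving out each embryo in turn gave 281 to 654 genes, 100 to 245 higher and 176 to 409 lower. The covariate, and the settings that join another choice with leaving out Ctrl_LNA 48, were chosen after seeing the data. The within-embryo difference of Chd1 and Chd2 was -0.55 and no longer past the threshold in the lower runs (exact permutation adjusted p = 0.559), that of Arid1a and Smarca4 was 0.79 there (exact permutation adjusted p = 0.105), and that of Smarca2 and Smarca4 was 1.51 and past it in the upper runs without Ctrl_LNA 48 (exact permutation adjusted p = 0.0365). The cause of these shifts was not tested.

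Uncalled members changed sign as follows, in log2 fold change. Chd2 was -0.12 with median centring, -0.61 in the lower runs, -0.025 without Ctrl_LNA 48, -0.093 with both median centring and that embryo left out, and -0.084 and -0.16 with the oocyte covariate, with and without that embryo. Chd4 was -0.25 with edgeR, -0.18 with DESeq2, -0.21 with median centring, -0.21 with array weights, -0.54 in the lower runs, -0.25 without Ctrl_LNA 48, -0.29 and -0.40 with the covariate, with and without that embryo, and -0.32 with edgeR, DESeq2 or median centring without it. Chd7 was -0.084 with edgeR, -0.34 with median centring, -0.044 with array weights, -0.20 in the lower runs, -0.11 without Ctrl_LNA 48, and without that embryo -0.15 with edgeR, -0.14 with DESeq2, -0.18 with median centring and -0.059 in the upper runs. Chd8 was 0.094 in the upper runs. Smarca2 was -0.008 with the covariate. Smarca5 was 0.012 with array weights, 0.065 in the lower runs, and 0.28 and 0.29 with the covariate, with and without Ctrl_LNA 48. Ino80 was 0.035 and 0.063 in those 2 fits. Leaving out each embryo in turn gave -0.025 to 0.447 for Chd2, -0.251 to 0.349 for Chd4 and -0.112 to 0.206 for Chd7, with the negative end without Ctrl_LNA 48. Depth limits the lowest values, such as 18 reads of Chd1 in a Val_LNA embryo and 1 read of Chd4 in Ctrl_LNA 48.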
